A study of Mus musculus with 5 samples.

Results

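Cycling cells of the mouse heart were the cells with a unique molecular identifier (UMI, 1 counted RNA molecule) in at least 3 of 5 genes of cell division, Mki67, Top2a, Birc5, Nusap1 and Cenpf. Heart cells were kept if they held 200 genes or more and no more than 15% of their UMIs were mitochondrial, and 267 of the 19423 kept cells met this rule. They were 128 of 11388 cells in the library from mice of 2 months and 139 of 8035 cells in the library from mice of 18 months. Each cycling cell was then sorted by the one of 5 lineage genes with the most UMIs: Cd79a for B cells, Cd3e for T cells, C1qa for macrophages, Cdh5 for endothelial cells and Pdgfra for fibroblasts. The 5 cycle genes chose the members, so their levels are given as a description.

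Both groups were C57BL/6 mice that differed in age alone by the labels, whose treatment field reads Aging for each. Hearts were digested with collagenase II and dispase II, the non-cardiomyocyte cells were stained, sorted and mixed at unequal ratios, and each age gave 1 droplet 3′ RNA library (10x Genomics). The labels name the cell type Lymphocyte, but the kept cells also held endothelial, fibroblast, mural and myeloid cells, and 578 and 121 cells without a lineage gene carried cardiomyocyte genes. The number of mice, the sort gates and the meaning of each heart hashtag are not given in the sources used here. With 1 library per age no test between ages was possible. Intervals given below are exact 95% intervals that cover counting error only, and cells of a library are not replicates. The share that a count of 0 allows is given as 3 counts divided by the number of cells, which is not the upper end of an exact interval. A gene was counted as higher or lower at a ratio of at least 1.5-fold with a counting interval without 0, among genes with at least 20 UMIs over both sides.

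The cell cycle runs through growth, DNA synthesis, a second gap and mitosis, and each step has its own set of transcripts. Replication licensing factors and nucleotide enzymes peak around DNA synthesis, while cyclin B, Aurora kinases, kinesins and kinetochore proteins accumulate toward mitosis. Resident macrophages of the adult heart are known to renew themselves partly by division, whereas most endothelial cells and fibroblasts of the resting heart are quiescent. Developing T cells divide intensively in the thymus, where they assemble their receptor genes.

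The libraries held 110118225 UMIs at 2 months and 55837814 at 18 months in the kept cells, with medians of 8272.5 and 4433 per cell. Cells positive for a hashtag, a barcoded antibody, had at least 100 of its UMIs. In each of the 4 single-hashtag groups (Hashtag09 and Hashtag10 at 2 months, Hashtag11 and Hashtag12 at 18 months) 92.1% to 95.6% of cells carried a UMI of Ptprc, the leukocyte gene of CD45. Only 5.39% and 9.32% of the cells without a hashtag did. Both libraries held cells with Xist and cells with Y-linked RNA, so mice of both sexes went into each. The libraries shared 42 cell barcodes, of which 31 were among kept cells and 0 were cycling in both.

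Cycling cells were rich in RNA. Their median was 27858.5 UMIs at 2 months and 19080 at 18 months, 3.41 and 4.34 times the median of the other cells. The upper limit of 15000 UMIs that the authors set for heart cells would remove 102 of the 128 cycling cells (79.7%) and 84 of the 139 (60.4%), against 19.1% and 9.76% of the other cells. Under the authors' whole filter 22 and 50 cycling cells were left. Scrublet, a doublet caller, marked 6 and 4 of the cycling cells. A hashtag was carried by 89.1% and 92.8% of them, against 28.9% and 55.5% of the other cells. Both hashtags of the library were present in 31 (24.2%) and 29 (20.9%), against 3.93% and 6.14%. At least 5 UMIs of 2 lineage genes were present in 22.7% and 15.8%, against 4.33% and 5.31%. These cuts are fixed numbers of UMIs, and cycling cells were deeper. The part of such cells in the results was not tested beyond leaving them out.

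Mki67 encodes the chromosome surface protein Ki-67, and it was found in 127 of 128 and 137 of 139 cycling cells. Its UMIs per cell ran from 0 to 61 with a median of 15 at 2 months, and from 0 to 54 with a median of 10 at 18 months. Top2a, the topoisomerase that untangles sister chromatids, was found in 119 and 128 cells, with medians of 16 and 12 UMIs. Birc5, the survivin subunit of the chromosomal passenger complex, was found in 114 and 123 cells, with medians of 6.5 and 5 UMIs. Nusap1, a spindle microtubule binder, was found in 96 and 107 cells, and Cenpf, a kinetochore protein, in 106 and 110. All 5 were found in 77 and 82 cells, the largest class of the rule in each library.

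The threshold of 3 genes separated cells unevenly. Cells with exactly 3 of the genes numbered 27 and 33, with a median of 9 and 10 UMIs over the 5 genes, and 66.7% of them in each library had a UMI of Cdk1, Tpx2 or Ccna2, genes of mitotic entry that the rule did not use. Cells with exactly 2 numbered 61 and 50, with a median of 3 UMIs in both, and 27.9% and 22.0% had a UMI of those genes. Cells with none of the 5 had such a UMI in 2.49% and 1.86% of cases.

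The 5 genes lie on 4 chromosomes of GRCm38: Cenpf at chr1:189640606-189688086 (minus strand), Nusap1 at chr2:119618298-119651244 (plus), Mki67 at chr7:135689784-135716361 (minus), Top2a at chr11:98992943-99024189 (minus) and Birc5 at chr11:117849251-117855743 (plus). Promoters of late cycle genes are known for CCAAT boxes, which bind the factor NF-Y, and for the cell cycle homology region, TTTGAA, which binds the MuvB complexes. The 250 bases before the RefSeq start (GRCm38.p6) are shown for 3 of the genes, because these windows carry either motif in differing number. Capitals mark TTTGAA and CCAAT on either strand, and each window is read 5′ to 3′ toward its gene.
Mki67, chr7:135716380-135716629, minus: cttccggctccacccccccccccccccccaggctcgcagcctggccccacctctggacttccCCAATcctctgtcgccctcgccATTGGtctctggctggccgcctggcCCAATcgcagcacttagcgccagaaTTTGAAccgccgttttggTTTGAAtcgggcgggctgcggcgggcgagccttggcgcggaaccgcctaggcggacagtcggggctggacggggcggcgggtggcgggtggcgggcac
Top2a, chr11:99024190-99024439, minus: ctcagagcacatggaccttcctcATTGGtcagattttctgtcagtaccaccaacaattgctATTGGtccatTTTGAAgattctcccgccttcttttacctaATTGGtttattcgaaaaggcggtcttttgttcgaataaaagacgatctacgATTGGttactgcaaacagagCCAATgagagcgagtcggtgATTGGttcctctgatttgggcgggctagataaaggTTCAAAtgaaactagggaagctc
Cenpf, chr1:189688087-189688336, minus: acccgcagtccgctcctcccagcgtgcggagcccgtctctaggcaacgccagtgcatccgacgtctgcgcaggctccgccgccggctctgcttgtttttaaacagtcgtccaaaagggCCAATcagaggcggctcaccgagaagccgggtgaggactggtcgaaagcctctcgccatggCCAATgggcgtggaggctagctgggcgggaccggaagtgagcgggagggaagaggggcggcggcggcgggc
Mki67 held 2 copies of TTTGAA and 3 of CCAAT, Top2a held 2 and 6, and Cenpf held 0 and 2. The windows of Nusap1 and Birc5 held neither motif. Among the 32851 promoter windows that were searched, TTTGAA stood in 16.0% and CCAAT in 33.8%. A match in these letters is a description and shows no binding.

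Cycling cells were found in every lineage, and their share differed most between ages in T cells. Among Cd3e cells, 7 of 285 were cycling at 2 months (2.46%, 0.993% to 4.99%) and 39 of 371 at 18 months (10.5%, 7.58% to 14.1%). This was a 4.28-fold higher share at 18 months, a log2 ratio of 2.10 (0.92 to 3.50). Among Cd79a cells the order was the opposite, with 28 of 1392 at 2 months (2.01%, 1.34% to 2.89%) and 10 of 1276 at 18 months (0.784%, 0.376% to 1.44%). The log2 ratio for B cells was -1.36 (-2.57 to -0.28).

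Macrophages supplied the most cycling cells in each library. Among C1qa cells 46 of 1413 were cycling at 2 months (3.26%) and 58 of 1582 at 18 months (3.67%), a log2 ratio of 0.17 with an interval from -0.41 to 0.76. Among Cdh5 cells the numbers were 14 of 2533 (0.553%) and 9 of 2146 (0.419%), with a log2 ratio of -0.40 (-1.79 to 0.91). Among Pdgfra cells they were 5 of 2987 (0.167%) and 2 of 500 (0.400%). Cells with none of the 5 lineage genes were cycling in 27 of 2558 cases (1.06%) and 16 of 1987 (0.805%), and cells with tied lineage genes in 1 of 220 and 5 of 173. For macrophages, endothelial cells and fibroblasts the intervals of the ratio included 0, so a difference between the libraries was not detectable at these numbers.

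**Figure D1:**
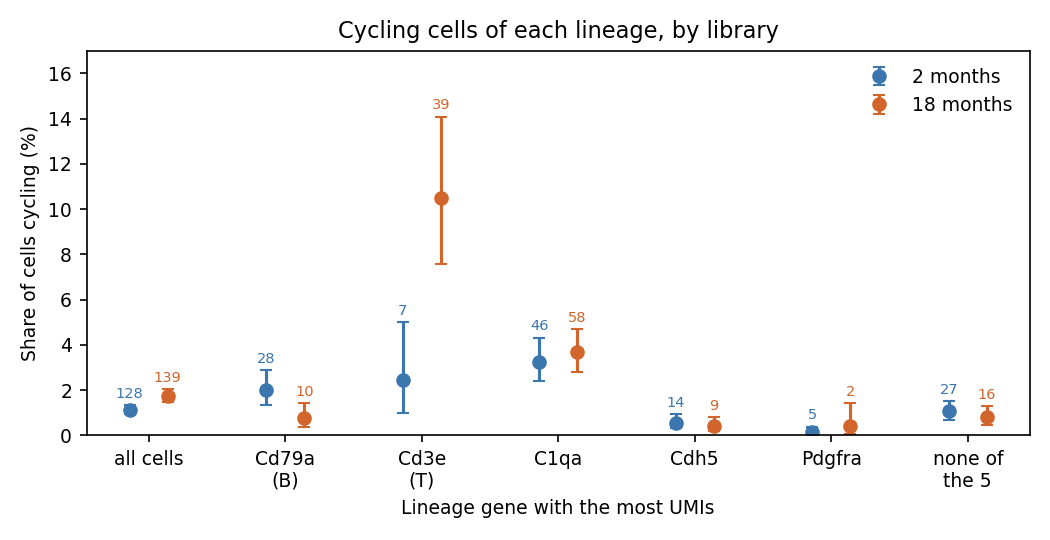
Share of cells cycling (%, y axis) by the lineage gene with the most UMIs (x axis) in the 2-month and 18-month libraries. Points are the shares, bars are exact 95% counting intervals, and the numerals at each bar's top are cycling cells; T cells stand at 2.46% and 10.5%, B cells at 2.01% and 0.784%.

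Over all kept cells the share was 1.12% (0.939% to 1.34%) at 2 months and 1.73% (1.46% to 2.04%) at 18 months. The cells were mixed differently in each library: hashtag-positive cells were 3370 of the 2-month cells and 4515 of the 18-month cells. Within hashtag-positive cells the order turned, with 114 cycling at 2 months (3.38%) and 129 at 18 months (2.86%). Cells without a hashtag were cycling in 14 of 8018 cases (0.175%) and 10 of 3520 (0.284%). By single hashtag the shares were 2.88% for Hashtag09 and 2.84% for Hashtag10 at 2 months, and 3.20% for Hashtag11 and 1.84% for Hashtag12 at 18 months.

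The make-up of the cycling cells differed too. B cells were 21.9% of them at 2 months and 7.19% at 18 months, and T cells were 5.47% and 28.1%. Macrophages were 35.9% and 41.7%, endothelial cells 10.9% and 6.47%, fibroblasts 3.91% and 1.44%, and cells with no lineage gene 21.1% and 11.5%.

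Depth differed between the libraries in B cells (medians of 9899.5 and 4474.5 UMIs) and hardly in T cells, so each cell was also thinned to a fixed number of UMIs. At 2000 UMIs (1574 and 1257 shallower cells left out) the share over all cells was 0.592% at 2 months and 1.09% at 18 months. T cells stood at 1.41% and 7.51%, B cells at 1.05% and 0.249%, macrophages at 1.14% and 1.62% and endothelial cells at 0.460% and 0.462%. The order of the ages in T and B cells was that of the unthinned shares. The summed level of the 5 genes over all T cells was 235 CPM (UMIs per 1000000 UMIs of the same cells) at 2 months and 734 at 18 months. Over all B cells it was 126 and 55.4, and over all macrophages 128 and 139. Cycling cells held 74.7% to 95.9% of these UMIs in those 3 lineages.

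Free RNA in the droplets could give UMIs of the cycle genes to cells that do not divide. Remaining cardiomyocytes had 0 cycling cells of 578 at 2 months, which allows a share of up to 0.519%, and 0 of 121 at 18 months, which allows up to 2.48%. Their median depths were 2866.5 and 2346 UMIs, close to those of endothelial cells (2764 and 2747) and below those of T cells (7178 and 7159). Mural cells, at medians of 8835 and 7875.5 UMIs, had 0 of 891 and 0 of 176, which allow up to 0.337% and 1.70%. Mature neutrophils without a lineage gene, known as cells that no longer divide, were not at 0. They had 5 of 171 at 2 months (2.92%, 0.956% to 6.69%) and 3 of 793 at 18 months (0.378%). The 2-month share lay above those of T cells (2.46%) and B cells (2.01%) in that library. The 18-month share lay below both (10.5% and 0.784%). The part of free RNA in these shares was not tested.

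Many of the T cells that cycled at 18 months, and 3 of 7 at 2 months, carried RNA of genes used in the thymus. Rag1 and Rag2 encode the recombinase that cuts receptor genes, Dntt adds bases at the joints, Ptcra is the surrogate alpha chain of the pre-T cell receptor, and Arpp21 is abundant in immature thymocytes. At least 2 of these 5 genes had a UMI in 3 of 7 cycling T cells at 2 months (42.9%, 9.90% to 81.6%) and in 25 of 39 at 18 months (64.1%, 47.2% to 78.8%). Among the other T cells they did so in 5 of 278 (1.80%) and 23 of 332 (6.93%). These 5 were picked from a longer thymocyte list after their values were seen. Among cycling cells of other lineages, at least 2 of them had a UMI in 0 of 28 B cells and 0 of 46 macrophages at 2 months. At 18 months this held for 1 of 10 B cells and 5 of 58 macrophages. Over all lineages, 29 such cycling cells at 18 months carried Hashtag11 alone, 7 carried both hashtags and 0 carried Hashtag12 alone. The 29 included 2 macrophages, 1 endothelial cell, 2 cells with no lineage gene and 2 with tied lineage genes.

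Dntt stood at 718 CPM in cycling T cells of the 2-month library and 735 in those of the 18-month library, against 8.98 and 52.3 in the other T cells. Arpp21 stood at 229 and 310 CPM against 15.7 and 38.8. Rag1 stood at 77.7 and 110 CPM against 13.9 and 21.9. Rag2 was found in 8 of the 39 cells at 18 months and in 0 of 7 at 2 months. Each gene is compared with itself only, and Dntt, Arpp21 and Rag1 were higher in the cycling T cells of both libraries. The other 3 genes of the 8-gene thymocyte list did not share that direction. Cd8b1 stood at 279 and 599 CPM against 325 and 388, Cd4 at 32.0 and 78.5 against 75.0 and 82.6, and Themis, a signalling protein of thymocyte selection, had log2 ratios of -0.33 and 0.36. By the rule 3 of 6 measured genes of the list were higher and 1 lower at 2 months (15.5% and 9.91% of all genes were), and 6 of 8 were higher and 0 lower at 18 months (20.2% and 18.1%).

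Other genes differed as well. Cd24a, an antigen of immature lymphocytes, stood at 348 and 227 CPM in cycling T cells against 27.8 and 61.9 in the others. Cd8a stood at 215 and 482 CPM against 116 and 176. UMIs of both Cd4 and a Cd8 chain were found in 2 of 7 and 16 of 39 cycling T cells, against 10 of 278 and 28 of 332 others. Such a count depends on depth, and cycling T cells were deeper, as given below. Ccl5, a chemokine of memory and cytotoxic T cells, was lower at 9.15 and 845 CPM against 1114 and 4782. The list of effector genes was divided. Gzma, a granzyme, stood at 41.2 and 191 CPM against 2.24 and 166, and its interval at 18 months included 0. Gzmk stood at 42.3 CPM against 57.3 at 18 months, where its interval included 0 too. Gzmb, another granzyme, and Ifng, the interferon gamma gene, were lower at 18 months, at 16.9 CPM against 64.6 and at 39.8 against 71.1. Trac, the constant part of the T cell receptor alpha chain, stood at 114 and 193 CPM against 490 and 369. Foxp3, the regulatory T cell factor, was found in 1 of 7 and 0 of 39 cycling T cells. Genes of antigen-presenting cells were present as well. Over 50 UMIs of H2-Aa, an MHC class II gene, were found in 3 of 7 and 4 of 39 cycling T cells, against 6 of 278 and 12 of 332 others. This cut is a fixed number of UMIs, and cycling T cells were deeper, at medians of 29553 and 16168 UMIs against 7130.5 and 6910.5. The 8 listed MHC genes summed to 18209 and 11883 CPM in cycling T cells, against 9262 and 12500 in the others. A UMI of Flt3, a receptor of dendritic cells and their precursors, was found in 3 of 7 and 3 of 39, against 2 of 278 and 8 of 332, and the part of such cells in the T cell results was not tested.

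These cells were spread unevenly over the hashtags. At 18 months, 22 of the 25 cycling T cells with thymocyte genes carried Hashtag11 alone, 3 carried both hashtags and 0 carried Hashtag12 alone. At 2 months all 3 carried Hashtag10 alone and 0 carried Hashtag09 alone. In all, 26 of 196 T cells with Hashtag11 were cycling (13.3%, 8.85% to 18.8%), against 9 of 142 with Hashtag12 (6.34%, 2.94% to 11.7%). At 2 months 3 of 206 with Hashtag09 (1.46%) and 3 of 64 with Hashtag10 (4.69%, 0.977% to 13.1%) were cycling. Between Hashtag10 and Hashtag12 the log2 ratio for T cells was 0.44. What each hashtag stands for was not given, so tissue, animal and handling cannot be told apart.

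**Figure D2:**
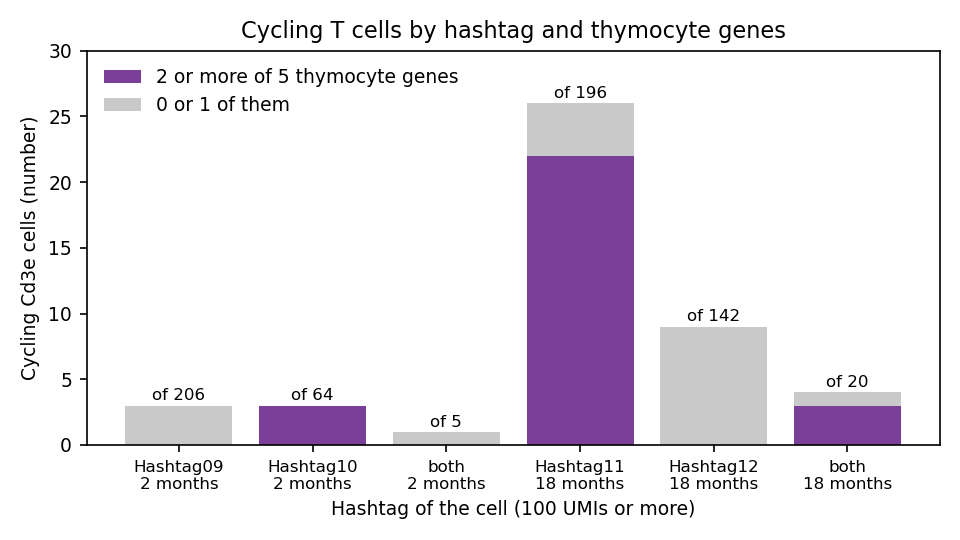
Number of cycling Cd3e cells (y axis) by hashtag and age (x axis), split into cells with at least 2 of the 5 thymocyte genes and cells with fewer; the label above each bar gives all Cd3e cells of that hashtag. Hashtag11 holds 22 of the cells with thymocyte genes and Hashtag12 holds 0.

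Without T cells that carried thymocyte genes, 4 of 277 were cycling at 2 months (1.44%, 0.395% to 3.66%) and 14 of 323 at 18 months (4.33%, 2.39% to 7.17%). The log2 ratio was then 1.59, and its interval (-0.09 to 3.65) included 0. Among the T cells with thymocyte genes, 3 of 8 and 25 of 48 were cycling (37.5% and 52.1%). The sex of origin also moved with the result. Of cycling T cells at 18 months 22 held Xist and no Y-linked UMI and 7 the reverse, while all 7 at 2 months held Y-linked UMIs only. Among T cells with Y-linked UMIs only, 7 of 150 were cycling at 2 months (4.67%) and 7 of 129 at 18 months (5.43%). Among those with Xist only, 0 of 42 (which allows up to 7.14%) and 22 of 149 (14.8%) were.

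The 14 cycling T cells without thymocyte genes at 18 months differed from the 25 with them in several genes, which were picked after their values were seen. Ccl5 had UMIs in 8 of them at 2791 CPM, against 6.91 CPM in the 25 cells with thymocyte genes. S100a4, a calcium-binding protein of memory cells, stood at 2342 CPM in 12 of the 14 against 24.2, and the cytotoxic granule gene Nkg7 at 814 CPM against 15.5. Gzma went the other way, at 8.02 CPM against 269. Satb1, a chromatin organizer of developing thymocytes, stood at 52.1 CPM against 717, and Ccr9, a thymus and gut homing receptor, at 4.01 against 207. Mki67 did not separate them, at 658 CPM in the cells without thymocyte genes and 670 in those with them. The 5 thymocyte genes made this split, and the 14 cells were too few for more than a description.

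Genes of the pre-B stage did not share a direction in the B cells that cycled. Vpreb1 and Igll1, genes of the surrogate light chain, had 0 UMIs in the 28 and 10 cells. They were rare in the other B cells too: Vpreb1 was found in 10 of 1364 and 6 of 1266, Igll1 in 1 and 0. Vpreb3 was lower in both libraries, at 29.0 and 87.8 CPM against 67.1 and 173. At 18 months Dntt stood at 47.9 CPM against 4.40 and Rag1 at 12.0 against 1.68, each with UMIs in 1 of the 10 cells. Fas, a death receptor raised on germinal centre B cells, stood at 23.4 and 27.9 CPM in cycling B cells against 8.34 and 12.9 in the others, and at 18 months 1 cell held all of its UMIs. Bcl6, the defining factor of germinal centre B cells, stood at 8.93 and 16.0 CPM against 25.4 and 40.5. Ighd, the receptor heavy chain of naive B cells, was lower at 96.0 and 87.8 CPM against 229 and 622. Jchain, which joins secreted antibodies, stood at 13.4 CPM against 3696 at 2 months, and at 1752 against 443 at 18 months, where 3 of 10 cells held it.

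The lower B cell share at 18 months was seen against the best filled 2-month hashtag. With Hashtag09 20 of 1047 B cells were cycling (1.91%), with Hashtag11 3 of 495 (0.606%) and with Hashtag12 4 of 641 (0.624%). Hashtag10 held 86 B cells with 0 cycling, which allows up to 3.49%. At least 2 of 3 further B cell genes were present in 25 of the 28 cycling B cells and in 6 of the 10. With that added demand the shares were 2.10% and 0.533%. Over 50 UMIs of H2-Aa were found in 19 of 28 and 7 of 10 cycling B cells, against 253 of 1364 and 73 of 1266 others. A UMI of Flt3 was found in 8 of 28 and 4 of 10, against 78 of 1364 and 30 of 1266. These cuts are fixed numbers of UMIs, and cycling B cells were deeper. Their medians were 30474.5 and 26838 UMIs against 9899.5 and 4474.5 for all B cells. The 8 listed MHC genes summed to 28085 and 38134 CPM in cycling B cells, against 24827 and 31712 in the others. The part of other antigen-presenting cells in the B cell results was not tested. Both hashtags of the library were present in 7 of 28 and 2 of 10 cycling B cells, against 6.45% and 6.64% of the others. At least 5 UMIs of 2 lineage genes were present in 25% and 20%, against 8.28% and 4.50%. Without cells that held both hashtags, 21 of 1297 (1.62%) and 8 of 1190 (0.672%) B cells were cycling. The log2 ratio was then -1.27, with an interval from -2.65 to -0.035. The sex of origin moved with the result here too. Among B cells with Y-linked UMIs only, 22 of 885 were cycling at 2 months (2.49%) and 2 of 560 at 18 months (0.357%). Among those with Xist only, 0 of 145 (which allows up to 2.07%) and 5 of 234 (2.14%) were, so the order of the ages was not the same in both. Under the authors' filter 2 of 997 and 2 of 1148 cycling B cells were left, and the ratio could not be told from 1.

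Of 6 genes of resident macrophages, 3 were lower at 2 months (Lyve1, Timd4 and Gas6) and 5 at 18 months (all but Mrc1) in cycling macrophages than in other C1qa cells of their library, and 0 were higher. Of all genes 9.86% and 10.5% were lower. Lyve1, a hyaluronan receptor, stood at 37.0 and 54.2 CPM against 105 and 125. Folr2, a folate receptor, stood at 92.1 and 42.1 CPM against 137 and 153, and Timd4, a receptor for dying cells, at 10.2 and 5.71 against 29.7 and 15.1. Gas6, a bridging ligand for dying cells, stood at 106 and 48.5 CPM against 164 and 136. Cd163, a scavenger receptor, stood at 89.8 and 43.5 CPM against 109 and 104, and Mrc1, the mannose receptor, at 302 and 287 against 371 in both. Adgre1, the F4/80 antigen, was lower in both libraries at 139 and 165 CPM against 217 and 289. Csf1r, the receptor for macrophage growth factor, stood at 458 CPM against 597 at 2 months, within 1.5-fold, and was lower at 18 months at 405 against 720.

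Genes of recruited macrophages did not share 1 direction. Ccr2, the monocyte chemokine receptor, stood at 108 and 271 CPM in cycling macrophages against 146 and 286. Plac8 was higher at 2 months (268 against 162) and within 1.5-fold at 18 months (157 against 181). Flt3 was higher in both at 24.4 and 23.5 CPM against 11.5 and 8.82, with UMIs in 12 of 46 and 9 of 58 cells. Kit, the stem cell factor receptor, stood at 33.1 and 12.8 CPM against 5.05 and 7.57, and its interval at 18 months included 0.

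Many cycling macrophages carried both hashtags or genes of a second lineage; the part of such cells in the results was not tested beyond leaving them out. Both hashtags of the library were present in 22 of 46 (47.8%) and 22 of 58 (37.9%), against 24.7% and 21.5% of the other macrophages. At least 5 UMIs of 2 lineage genes were present in 20 and 19 of them (43.5% and 32.8%), against 25.4% and 23.2%. This cut is a fixed number of UMIs, and cycling macrophages were deeper. Their medians were 26774 and 20942.5 UMIs against 10931 and 10599 for all macrophages. Scrublet marked 3 and 1 of the cycling macrophages. Without any cell that held both hashtags, 24 of 1054 (2.28%) and 36 of 1232 (2.92%) macrophages were cycling. The macrophage share by hashtag was 4.41% for Hashtag09, 2.22% for Hashtag10, 3.50% for Hashtag11 and 3.09% for Hashtag12, so the 18-month values lay between the 2-month ones. Macrophages without a hashtag had 0 cycling cells of 241 and of 132, which allow up to 1.24% and 2.27%.

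Endothelial cells that cycled were mostly without a hashtag, 10 of 14 and 8 of 9, and all of them had at least 2 of 3 further endothelial genes. A hashtag was carried by 4 and 1 of them, against 3.81% and 7.21% of other endothelial cells. Over 50 UMIs of H2-Aa were found in 2 and 0 of them, and a UMI of Flt3 in 2 and 0. At 2 months 5 of 8 MHC genes were higher in them and 0 lower (11.6% and 12.8% of all genes were). At 18 months 0 were higher and 5 lower (9.66% and 6.71%). The part of cells with leukocyte genes in the endothelial results was not tested. Of 5 genes of capillary endothelium 4 were lower in cycling endothelial cells at 2 months and 3 at 18 months, where 12.8% and 6.71% of all genes were lower. Fabp4, a fatty acid carrier, stood at 2371 and 2243 CPM against 6917 and 6841 in other endothelial cells, and Cd36, a fatty acid receptor, at 485 and 692 against 2067 and 2406. Rgcc stood at 115 and 68.3 CPM against 416 and 406. Kdr, the main VEGF receptor, stood at 498 and 419 CPM against 1480 and 1608. Efnb2, an artery gene, was lower at 128 and 97.5 CPM against 275 and 297, and Vwf, a vein gene, at 13.2 CPM against 52.2 at 2 months and at 0 UMIs in the 9 cells at 18 months. Of the 4 artery genes all were lower at 2 months and 2 at 18 months, when the intervals of Hey1 and Sema3g included 0. Of the vein and endocardium genes 2 of 3 measured were lower at 2 months and 2 of 4 at 18 months.

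Apln and Kit were higher in cycling endothelial cells at 2 months. Apln, the ligand of the apelin receptor and a gene of sprouting tip cells, stood at 110 and 87.8 CPM against 29.0 and 46.7, with UMIs in 9 of 14 and 4 of 9 cells. Kit stood at 132 and 78.0 CPM against 37.8 and 34.8. The interval of the ratio left out 0 at 2 months for both genes and included it at 18 months. Esm1, another tip cell gene, had 38 UMIs in 1 cell at 2 months and 0 at 18 months. The tip cell list did not share a direction: Kdr, lower in both libraries, belongs to it, and so does the chemokine receptor Cxcr4, at 39.7 and 39.0 CPM against 50.9 and 63.5.

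**Figure D3:**
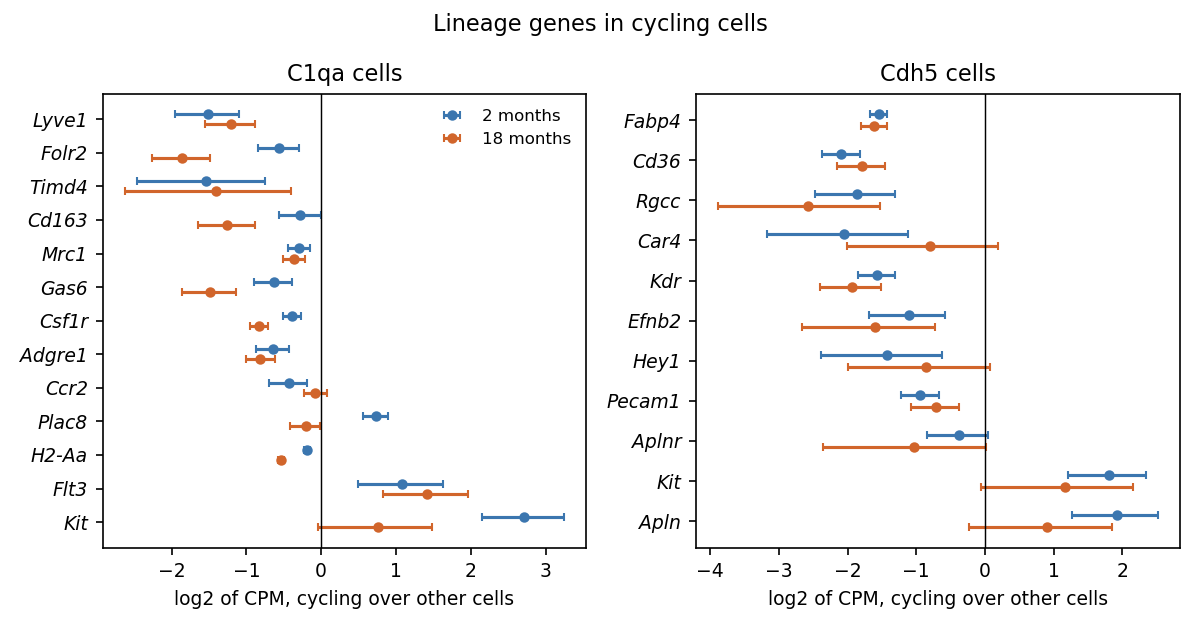
Log2 ratio of CPM in cycling over other cells (x axis) for genes of macrophages (left) and of endothelial cells (right), by library; points are ratios of summed UMIs and bars are 95% intervals of counting error. Lyve1, Timd4, Fabp4 and Cd36 lie left of 0 in both libraries, and the points of Flt3, Kit and Apln lie right of it. At 18 months the bars of Kit in both panels and of Apln reach past 0.

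The few Pdgfra cells that cycled were mixed in their other genes. Of the 5 at 2 months, 3 had a single Pdgfra UMI, and 4 had over 50 UMIs of H2-Aa together with a Flt3 UMI. At least 2 of 3 further fibroblast genes were present in 3 of the 5 and in both cells at 18 months. The latter held Dcn, a matrix proteoglycan, at 3976 CPM, against 15932 in the other Pdgfra cells of that library. Scrublet marked 2 of the 5 and 1 of the 2. A hashtag was carried by 4 and 1 of them, against 2.18% and 5.22% of the other Pdgfra cells.

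Among cells with none of the 5 lineage genes, the dendritic class supplied the most cycling cells at 2 months, and at 18 months as many (5) as the cells of no class. It was defined by at least 2 of Flt3, Cd209a, Xcr1, Clec9a and H2-Aa with 3 UMIs or more, and 16 of 127 (12.6%, 7.38% to 19.7%) were cycling at 2 months and 5 of 102 (4.90%, 1.61% to 11.1%) at 18 months, at median depths of 17435 and 15109.5 UMIs. The intervals overlap. Mature neutrophils are known as cells that no longer divide, and their class had 5 of 171 (2.92%) and 3 of 793 (0.378%). Monocyte-class cells had 4 of 66 (6.06%) and 0 of 147, which allows up to 2.04%. Group 2 innate lymphoid cells had 0 of 61 and 0 of 79, which allow up to 4.92% and 3.80%, and natural killer cells 0 of 22 and 2 of 51.

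The cycling cells of both libraries spanned DNA synthesis and mitosis, and the balance between them did not differ beyond its counting interval. UMIs of 40 genes of replication and of 59 genes of mitosis were summed in each cell. More synthesis than mitosis UMIs were found in 42 of 128 cells (32.8%, 24.8% to 41.7%) at 2 months and 43 of 139 (30.9%, 23.4% to 39.3%) at 18 months. The log2 ratio of these shares was -0.08 (-0.73 to 0.56). By lineage they were 9 of 28 and 3 of 10 B cells, 2 of 7 and 13 of 39 T cells, 15 of 46 and 21 of 58 macrophages, and 7 of 14 and 1 of 9 endothelial cells. Over all cycling cells the mitosis genes had 1.62 and 1.61 times the UMIs of the synthesis genes.

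**Figure D4:**
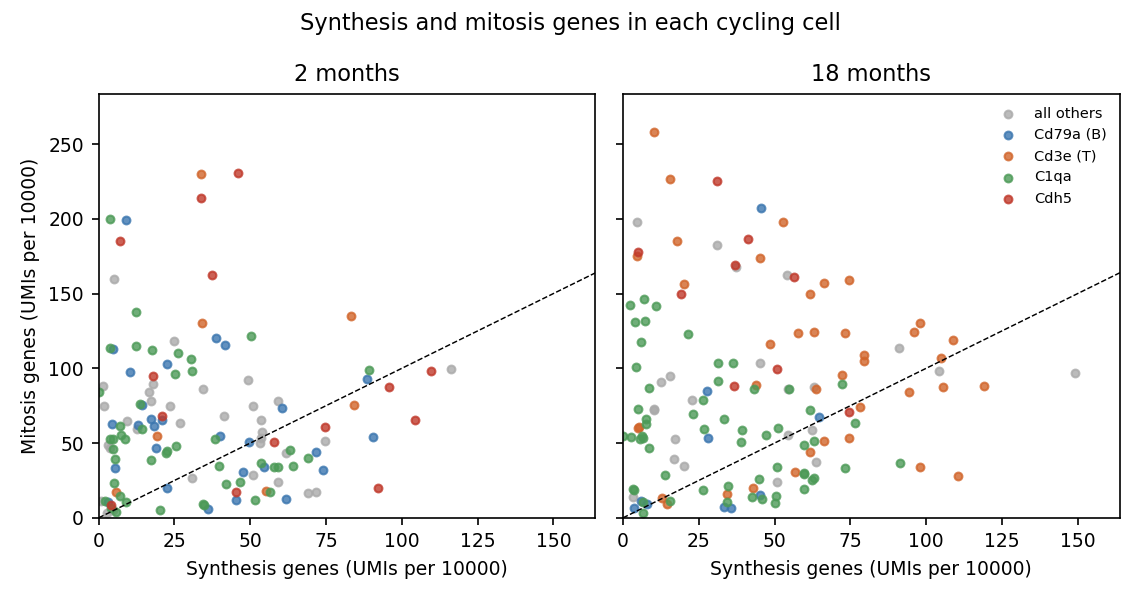
UMIs per 10000 of the 40 synthesis genes (x axis) and the 59 mitosis genes (y axis) in each cycling cell of the 2-month (left) and 18-month (right) library, coloured by lineage gene; the dashed line marks equal values. Below the line lie 42 of 128 and 43 of 139 cells. The sets hold different genes, so the line does not divide the steps of the cycle.

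Most cycle genes outside the rule were higher in the cycling macrophages, B, T and endothelial cells, a description of cells that were chosen for division. In macrophages all 25 genes of DNA synthesis and nucleotide supply, all 11 mitotic kinases and all 16 centromere and kinetochore genes were higher in the cycling cells of both libraries. Of all genes with at least 20 UMIs, 8.63% were higher at 2 months and 12% at 18 months, and 9.86% and 10.5% were lower. The mitotic kinases had a median log2 ratio of 5.78 and 6.13, and the genes of DNA synthesis of 2.50 and 2.88. In T cells at 18 months the 11 kinases and all 19 kinesin and spindle genes were higher (20.2% of all genes were), with medians of 6.11 and 5.65. At 2 months all 24 measured genes of DNA synthesis were higher in cycling T cells, where 15.5% of all genes were higher and 9.91% lower. In B cells 24 of 25 genes of DNA synthesis were higher at 2 months (12.2% of all genes were, and 9.96% were lower), and 20 of 24 measured were at 18 months (8.72% and 8.04%). At 18 months only 2 of 4 measured cyclins and 2 of 5 measured cycle transcription factors were higher in B cells. In endothelial cells all 24 measured were higher at 2 months (11.6% and 12.8% of all genes were higher and lower), as were all 22 measured at 18 months (9.66% and 6.71%). Interferon gamma response genes showed no such pattern in macrophages, with 2 higher and 3 lower of 20 at 2 months and 1 and 3 at 18 months. In T cells at 18 months 10 of 20 were lower and 1 higher, where 18.1% of all genes were lower.

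The list of CDK inhibitors and quiescence genes held members of both directions. In macrophages 3 of 16 were higher and 2 lower at 2 months, where 8.63% and 9.86% of all genes were. At 18 months 2 were higher and 5 lower, where 12% and 10.5% of all genes were. In T cells at 18 months 4 of 15 measured were higher and 5 lower, where 20.2% and 18.1% of all genes were.

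Only macrophages had at least 20 cycling cells in each library, so the ages were compared gene by gene in them. Of 9102 genes with at least 20 UMIs, 541 (5.94%) were higher at 18 months and 480 (5.27%) lower, in sum 11.2%, and the median log2 ratio of all of them was 0.04. Licensing genes had a median of 0.44 with 1 of 15 higher, Gmnn, the inhibitor of relicensing (84.3 and 127 CPM). DNA synthesis genes had a median of 0.19 with 2 of 25 higher. These were Pcna, the sliding clamp of DNA polymerase (89.0 and 157 CPM, log2 ratio 0.82), and Pole, a polymerase subunit (15.7 and 31.4 CPM).

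Of 9 cyclins 1 was higher and 2 were lower. Ccnb1, the cyclin of mitotic entry, was higher at 18 months at 79.9 CPM against 44.9, a log2 ratio of 0.83 (from 0.36 up). Ccne1, the cyclin of S phase entry, was lower at 17.1 against 29.9 CPM, and Ccnd2, a cyclin of the first gap, at 101 against 157. Mki67 itself stood at 635 CPM at 2 months and 502 at 18 months, and Top2a at 538 and 511, both within 1.5-fold. The medians were 0.34 for mitotic kinases, 0.03 for kinesins and spindle and 0.18 for centromere and kinetochore genes. Of the 11 kinases and 19 kinesin and spindle genes 0 were higher or lower by the rule.

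Interferon gamma response genes had a median log2 ratio of 0.23 in cycling macrophages, with 4 of 19 measured higher and 0 lower. In the other macrophages the median was 0.30. Cxcl10, a chemokine for activated T cells, stood at 52.0 and 162 CPM, with 49.5% of its UMIs in the 5 richest cells, and at 83.2 and 120 CPM in the other macrophages. Cxcl9, a chemokine of the same receptor, had 5 and 33 UMIs (3.94 and 23.5 CPM). Isg15, a ubiquitin-like modifier, stood at 40.9 and 67.0 CPM, and Gbp4, a guanylate-binding protein, at 8.66 and 18.5. MHC genes had a median of 0.04 with 0 of 8 higher or lower, and 0.28 in the other macrophages. H2-Aa stood at 4676 and 4939 CPM in cycling and at 5329 and 7157 in other macrophages; whether the ages differ more in one than the other was not tested.

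**Figure D5:**
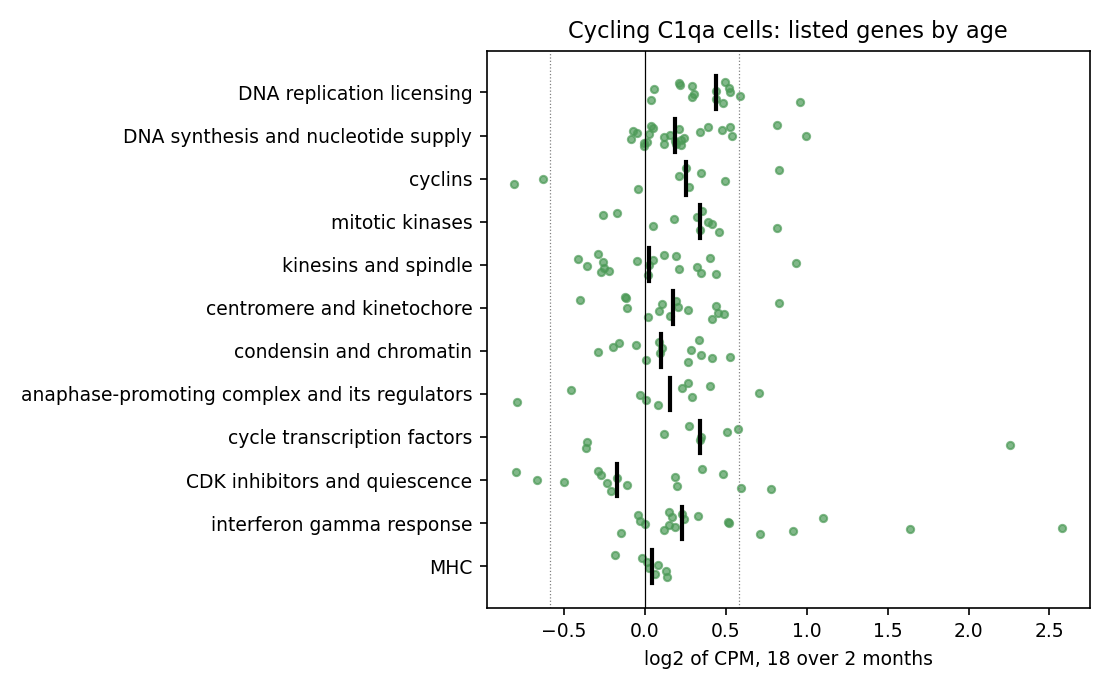
Log2 ratio of CPM at 18 over 2 months (x axis) in cycling C1qa cells for each listed gene (points) with the median of each list (black bars); dotted lines mark 1.5-fold. The medians run from -0.17 for CDK inhibitors and quiescence to 0.44 for DNA replication licensing.

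By a rule of size, 10 genes with the highest ratios in cycling macrophages were taken, Cxcl10 of the interferon list among them, and 10 with the lowest. Tnf, an inflammatory cytokine, stood at 37.8 CPM at 2 months and 136 at 18 months (log2 ratio 1.85), and at 59.5 and 113 in other macrophages. Anxa1, a regulator of inflammation, stood at 73.2 and 227 CPM, with 48.2% of its UMIs in the 5 richest cells. Lgals3, the galectin of phagocytes, stood at 198 and 581 CPM. Ccr2 stood at 108 and 271 CPM, and Itgam, the CD11b chain, at 61.4 and 151. Pilra, Myof, Polr2l and Ap3s1 had log2 ratios of 1.62, 1.34, 1.24 and 1.17. Of the 10 named genes with the highest ratios, all had a higher level at 18 months in the other macrophages too, by log2 ratios from 0.09 for Ap3s1 to 1.19 for Pilra. Over the alternatives tried, the lowest log2 ratios were 0.23 for Lgals3, 0.25 for Ccr2, -0.27 for Itgam, 0.080 for Ap3s1, 0.34 for Pilra and -0.067 for Polr2l.

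The lowest ratios included genes of B cells. Ms4a1, the CD20 antigen, stood at 216 and 27.1 CPM (log2 ratio -2.99), Cd79a at 417 and 104 and its partner Cd79b at 215 and 57.1. Bcl11a, a factor of B cells and plasmacytoid cells, Siglecg, a brake on B cell receptors, and H2-DMb2, an MHC class II chaperone, had ratios of -1.96, -1.91 and -2.00. At least 5 UMIs of Cd79a were present in 15 of 46 and 11 of 58 cycling macrophages, and in 302 of 1367 and 291 of 1524 others. Without cells that held both hashtags Cd79a had a ratio of -2.81 and Ms4a1 of -4.35. In cells with Xist and no Y-linked UMIs the ratio of Cd79a was 4.30, so its direction turned. Traf1, Pmaip1, Sh3bp5 and Scd1 had ratios of -1.75, -1.79, -2.13 and -1.61.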

How the data were processed

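The authors deposited 1 matrix of raw UMI counts per heart library, made with Cell Ranger 3.1.0 per the file headers and the submitters' processing notes, which name mm10 and GRCm38. The deposited counts were read as they stand, and hashtag rows were kept out of totals. Cells with 200 genes or more and no more than 15% mitochondrial UMIs were kept. CPM are summed UMIs per 1000000 UMIs of the same cells, so deeper cells weigh more. Per gene, counts were summed per library and lineage, and 3′ counts were compared only within a gene, apart from the sums of the synthesis and mitosis genes.

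Shares have exact Clopper-Pearson 95% intervals, and ratios have exact conditional binomial intervals. Both cover counting error only and are too narrow for a difference between mice. No test between ages was made, since each age had 1 library. The count of a ratio as higher or lower needed 1.5-fold and an interval without 0 among genes with at least 20 UMIs over both sides. The rule for named genes took the 5 cycle genes, the lineage genes and 12 lists. It added, for lineages with at least 20 cycling cells per library, up to 10 genes in each direction with 50 CPM in 1 library, 50 UMIs, less than 50% of UMIs in the 5 richest cells and a level of at least 0.5 times that of the whole library. Mitochondrial, ribosomal, haemoglobin, receptor variable, unnamed, Xist and Y-linked genes were not named. Thinning drew each cell 20 times to 2000 or 4000 UMIs, keeping the lineage read from all UMIs. Doublets were marked with Scrublet in Scanpy 1.11.5 (expected share 8%) and left in; removing them, and cells with both hashtags, are alternatives. TMM scaling used edgeR 4.0.16. The ratio function was tested on simulated data. Promoter windows were matched by symbol, and gene positions are from GENCODE M21. The members and lists were chosen with earlier results of these data known. Lymph node files were not used here.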

Additional observations from a re-analysis of the deposited data

Results flagged for a closer look

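The share of cells cycling went in opposite directions with age in T and B cells, which marked both for a second look. The log2 ratio of 18 over 2 months was 2.10 in Cd3e cells and -1.36 in Cd79a cells. With 1 library per age the difference between the lineages was not tested. In cells with Y-linked and no Xist UMIs the ratios were 0.22 and -2.80. In cells with Xist and no Y-linked UMIs, 0 of 42 T cells were cycling at 2 months and 22 of 149 at 18 months, and of B cells 0 of 145 and 5 of 234 (2.14%), so the B cells did not show the lower share at 18 months there.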

How the results depend on the processing

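Ratios here are log2 of 18 over 2 months. In cells with Xist and no Y-linked UMIs the share cycling over all cells had a ratio of 1.68 and the make-up share of cells with no lineage gene -2.49. The marker CPM ratios there were 2.57 for B cells (reversed), 6.30 for T cells, 2.00 for all cells, 0.39 endothelial, 2.69 fibroblast, 0.83 macrophage and -1.24 for no lineage gene. List medians were 0.67 for MHC, -0.49 for cycle transcription factors and -0.57 for kinesins and spindle, with 216 genes higher and 284 lower. Cd79a (4.30), Cd79b (0.060) and Cxcl10 (-0.33) reversed.

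In cells with Y-linked and no Xist UMIs the share cycling had ratios of -0.033 over all cells (reversed), 0.22 in T and -2.80 in B cells, and the make-up shares 0.82 for T and 0.44 for no lineage gene. Marker CPM ratios were 0.032 for T cells, 0.32 for all cells, and reversed to -1.48 for fibroblasts, -0.29 for macrophages and 0.27 for no lineage gene. List medians were -0.21 for DNA synthesis, -0.71 for MHC and -0.12 for cyclins, and Polr2l reversed to -0.067.

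Under the authors' filter the share cycling had ratios of 1.52 over all cells and -0.20 in B cells. Marker CPM ratios were -0.61 for B, 2.00 for T and 1.45 for all cells, 0.75 endothelial, 0.86 fibroblast and 0.28 (reversed) for no lineage gene. The synthesis balance was 0.99, list medians 0.87 for DNA synthesis, 1.12 for MHC and -0.42 for centromere and kinetochore, and 104 genes were higher and 87 lower, with fewer cells counted.

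Between single hashtags the ratio over all cells was 0.15 (Hashtag09 to Hashtag11), -0.64 (Hashtag09 to Hashtag12, reversed), 0.17 (Hashtag10 to Hashtag11) and -0.63 (Hashtag10 to Hashtag12, reversed). For no lineage gene it was -1.53, -3.36 and, from Hashtag10 to Hashtag12, -3.11. It was -0.51 for macrophages (Hashtag09 to Hashtag12), -2.87 for endothelial cells (Hashtag10 to Hashtag11) and 0.44 for T cells (Hashtag10 to Hashtag12). Among hashtag-positive cells, an alternative chosen after seeing the data, it was -0.24 over all cells (reversed), -2.63 endothelial and -1.99 for no lineage gene, with a make-up ratio of -2.18 for endothelial cells.

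With 5 other cycle genes the B cell ratios were -2.93 for the share and -3.10 for the make-up. Without Scrublet doublets the fibroblast marker CPM ratio was 0.43. The MHC median was -0.17 without cells of both hashtags (added after seeing the data) and 0.15 with each cell of equal weight. Demanding exactly 1 lineage gene, 281 genes were higher, and Itgam reversed to -0.27. The cause of these moves was not tested. In all, 169 of 214 alternative values of shares, make-up, marker CPM and balance moved by less than their counting interval, as did 83 of 94 list medians. Of the counts of genes higher or lower 15 of 20 stayed within 1.5 times, and of the values of named genes 119 of 178 stayed, 54 moved and 5 reversed. No paired analysis was possible because each age had 1 library and the labels carry no replicate numbers.

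Precision is limited by cell number: 7 T cells, 10 B cells and 9 endothelial cells carry the smaller sides of their comparisons. The numbers of mice are unknown, and intervals leave out the spread between animals.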

Other observations

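Promoter windows of the other cycle genes were read for the motifs shown above, over the 250 bases before each RefSeq start. Of 56 windows of mitosis genes (51 of 59 genes matched), 15 held TTTGAA (26.8%) and 42 held CCAAT (75.0%), with both in 13. Of 40 windows of synthesis genes (33 of 40 genes matched), 4 held TTTGAA (10.0%) and 24 held CCAAT (60.0%), with both in 3. Over the 32851 windows searched the shares were 16.0% and 33.8%, and 5.55% held both. Kinesin and spindle genes had TTTGAA in 9 of 19 windows, and centromere and kinetochore genes in 1 of 17. For MHC genes it was 1 of 6, while CCAAT stood in 6 of 6. E2F sites written TTTGGCGC or TTTCCCGC, searched on both strands, stood in 7 of the 40 synthesis windows, 2 of the 56 mitosis windows and 1.30% of all windows.

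A second set of 5 cycle genes chose an overlapping set of cells. By at least 3 of those genes 107 cells at 2 months and 110 at 18 months were cycling, and 98 and 107 of them were also chosen by the first rule. The shared cells were 76.6% and 77.0% of those of the first rule and 91.6% and 97.3% of the others.

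Erythroid-class cells without a lineage gene were cycling in 2 of 10 cases at 2 months and 0 of 25 at 18 months, which allows up to 12.0%. Cells with none of the lineage genes and no class were cycling in 0 of 464 cases (up to 0.647%) and in 5 of 417 (1.20%).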
